A study of Arabidopsis with 8 samples.

Results

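Salt changed gene expression to a different extent in leaves of the ecotypes Sha (Shakdara) and Ler, and the values below describe that difference, the ecotype by salt interaction, over all 8 of the 8 arrays used here. The groups were Sha on plates with 100 mM NaCl (Sha salt), Sha on plates without added salt (Sha control), Ler with 100 mM NaCl (Ler salt) and Ler without it (Ler control), with 2 arrays each. All seedlings were moved 10 days after sowing and sampled 4 days later, and RNA of each replicate was pooled from leaves of at least 30 seedlings of a plate. Each array read a single Cy3-labeled RNA, and the labels name 2 biological replicates per group. The growth protocol of the labels (12 h of light, 22/18 °C) differs from that of the methods (16 h, 23 °C), so the light regime of these plants is not settled here. The interaction was computed as the salt change in Sha minus the salt change in Ler on the log2 scale, so a positive value means that salt moved a gene further upward, or less far downward, in Sha. Signals were divided by the 75th percentile of the same array, and such a relative signal of 1 equals that percentile. Relative signals compare arrays for the same gene and not genes with each other. Whether each probe matches the Sha and Ler transcripts equally well was not tested, and this applies to every difference between the ecotypes below. The account rests on the 30255 probes whose spots were well above background on all 8 arrays, which gave 19316 loci at the brightest probe of each locus.

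High salt lowers the water potential around a plant and loads its tissue with sodium ions. Leaves answer through abscisic acid (ABA), which closes stomata and switches on protective proteins, and through jasmonate, ethylene and salicylic acid, which tune growth against defence. Genes of photosynthesis and growth are commonly lowered in the process, and accessions of Arabidopsis differ in how far each branch is engaged.

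The arrays differed in brightness: the ratio of the 75th percentile to local background was 57.9 for Ler control replicate 1 and 82.9 to 136 for the other arrays. Between 72.5% and 79.0% of the spots other than controls were well above background, no spot was saturated, and the median SD between the replicate arrays of a group was 0.075 to 0.087 on the log2 scale. The labelled tissue was checked against markers. All 4 leaf markers were well above background on all 8 arrays, but so were all 12 root hair markers and all 9 root endodermis markers, and none of these 21 was at background. The summed relative signal of the root hair markers was 1.23 to 1.37 in Sha salt, 7.64 to 8.09 in Sha control, 2.80 to 2.88 in Ler salt and 6.75 to 6.97 in Ler control. That of the endodermis markers was 3.62 to 3.68 in Sha salt, 12.1 to 12.3 in Sha control, 3.29 to 3.62 in Ler salt and 9.43 to 10.1 in Ler control. RNA of these root markers was thus measured in every sample, it was lower with salt in both ecotypes, and root hair markers were lowest in Sha salt. In pooled tissue, fewer cells of a type and less RNA per cell cannot be told apart. Of 11 seed markers only 1 was well above background on all arrays, and 6 of 7 flower markers were.

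Salt changes differed between the ecotypes for 1983 of 30255 probes (6.55% of those tested, limma, Benjamini-Hochberg adjusted p under 0.05 and more than 2-fold), with a higher change in Sha for 1057 and a lower change in Sha for 926. This balance was not stable: at the brightest probe of each locus, 511 loci were called higher and 695 lower (2.65% and 3.60% of 19316), and quantile normalization gave 905 probes higher and 1002 lower. The interaction ran from -5.39 to 5.64 over all these probes, with a median of 0.02, and the central 90% lay between -0.83 and 1.04. The median standard error was 0.15. All 1983 called probes kept their sign in each of the 16 estimates that take 1 array from every group. These estimates reuse the arrays of the test, and the call rule makes a change of sign unlikely, so they add no separate support. Salt itself was called on 27.8% of the probes in Sha and on 24.8% in Ler, and 5810 probes passed in both ecotypes with the same sign, out of 8408 called in Sha and 7513 called in Ler. With the probes in 5 equal bins of signal, 13.2% of the dimmest and 2.76% of the brightest bin were called, with median standard errors of 0.21 and 0.13.

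**Figure D1:**
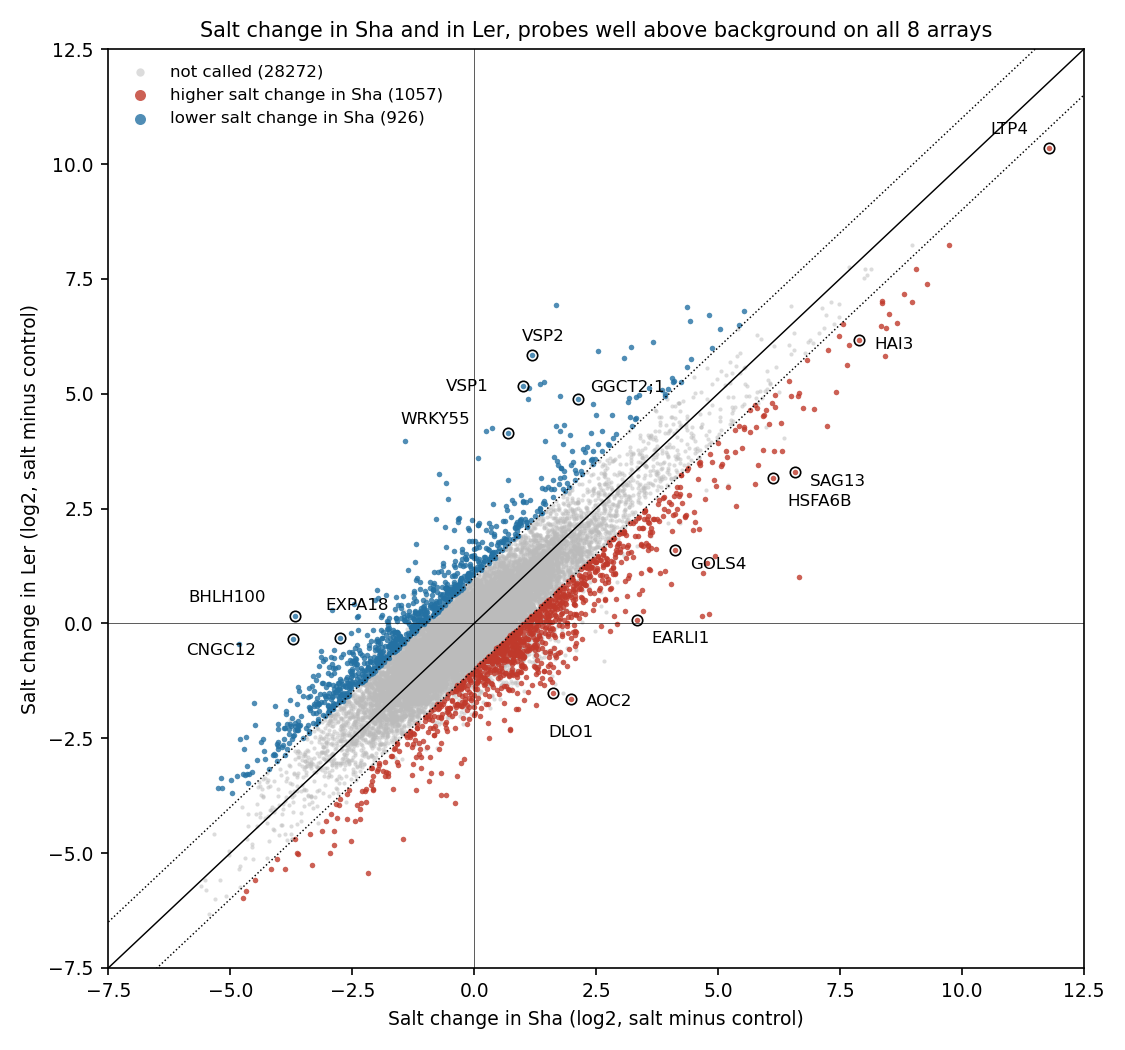
Salt change in Sha (x axis, log2) and in Ler (y axis, log2) for the 30255 probes well above background on all 8 arrays, with called probes in red (1057, higher in Sha) and blue (926, lower in Sha). Dotted lines mark a 2-fold interaction either side of equality. VSP2 and VSP1 lie far above the diagonal, near 1 on the x axis and above 5 on the y axis, and AOC2 and DLO1 fall in the corner where Sha rose and Ler fell.

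Among the 1983 called probes, 671 were called for salt in both ecotypes in the same direction, 965 in a single ecotype, 20 in opposite directions and 327 in neither. By probes, the largest classes were 311 probes raised in Sha and not called in Ler, 288 lowered in Sha and not called in Ler, and 234 each that were raised in both ecotypes but more in Sha or lowered in both but more in Sha. The matching classes with the larger response in Ler were smaller, with 164 raised in Ler and not called in Sha, 202 lowered in Ler and not called in Sha, 112 raised in both but less in Sha, and 91 lowered in both but less in Sha. By loci the order differed, with 216 lowered in Sha and not called in Ler, 197 lowered in both but more in Sha, 164 raised in both but more in Sha, and 137 raised in Sha and not called in Ler. The absolute salt change was larger in Sha for 1265 called probes and larger in Ler for 718. A salt call in a single ecotype does not by itself show a difference, and these classes only sort probes whose interaction passed the test.

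**Figure D2:**
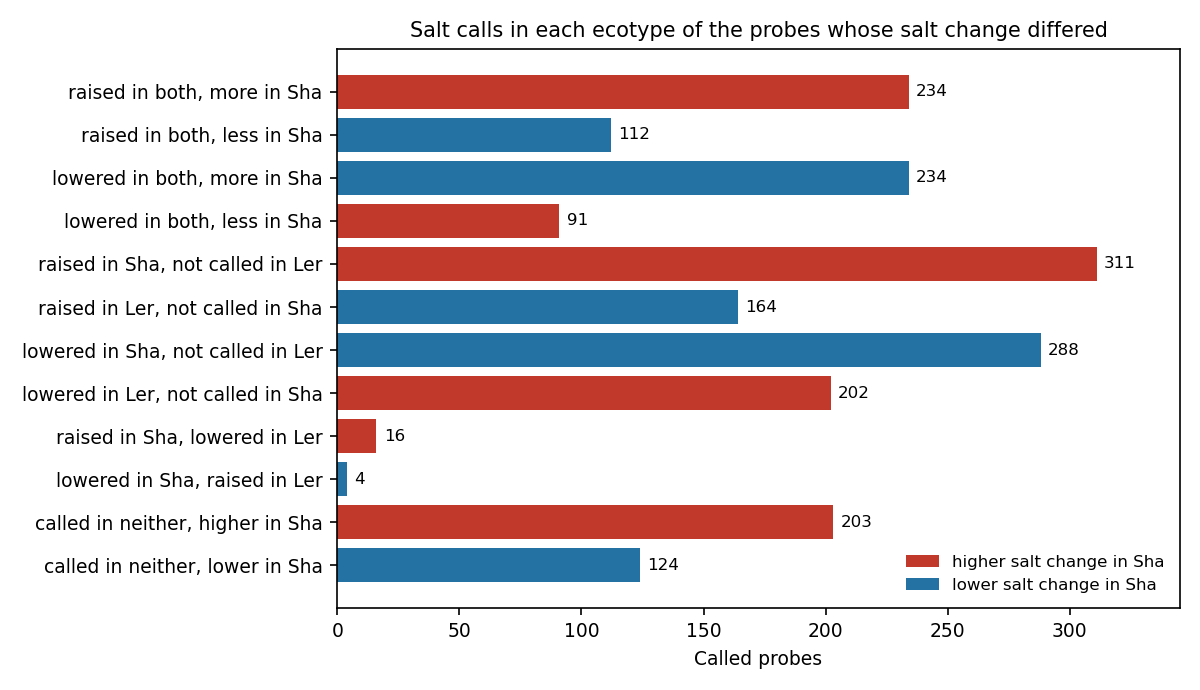
Number of called probes (x axis) in each class of salt response (y axis), red where the salt change was higher in Sha and blue where it was lower. The bars of the classes with the response in Sha alone are the longest by probes, at 311 and 288, which hold 137 and 216 loci.

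The same difference can be read as a gap between Sha and Ler that depends on salt. Sha against Ler was called on 9.81% of the probes in the presence of salt and on 9.27% in its absence. Of the 1983 probes, 680 were called between the ecotypes only with salt, with a negative interaction on 430 and a positive one on 250. Another 494 were called only without salt, with a negative interaction on 123 and a positive one on 371. A comparison that was not called can still differ by less than 2-fold. SAG13 was in the class of the 494, with a log2 difference of -0.73 with salt and -4.01 without it. Among probes called in both comparisons with the same sign, the gap widened with salt on 97 and narrowed on 76. A further 614 passed neither comparison. On 22 probes the gap turned over, so that the ecotype with the higher signal in control leaves had the lower signal in salt-treated leaves.

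The vegetative storage proteins VSP2 and VSP1 were among the 3 loci with the lowest interactions at the brightest probe, and their gap turned over. VSP2, an acid phosphatase-like storage and defence protein raised by jasmonate, had relative signals of 8.76 and 8.91 in Sha salt, 3.70 and 4.06 in Sha control, 28.8 and 30.1 in Ler salt, and 0.520 and 0.499 in Ler control. Ler without salt was lowest and Ler with salt highest, and no 2 groups overlapped. The interaction was -4.66 (SE 0.11, adjusted p = 0.0001), from a salt change of 1.19 in Sha and 5.85 in Ler. The log2 difference of Sha from Ler was -1.74 with salt and 2.93 without salt. VSP1, its close homolog, gave 10.6 and 9.72 in Sha salt, 4.90 and 5.17 in Sha control, 23.1 and 22.5 in Ler salt, and 0.670 and 0.607 in Ler control, with an interaction of -4.15 (SE 0.12, adjusted p = 0.00013). All 3 probes of VSP1 and both of VSP2 were called, but their sequences are alike and probes may read both transcripts.

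The other called genes of jasmonate had positive interactions, while 22 of 33 measured jasmonate loci had negative ones, the storage proteins included. Of 33 measured loci of jasmonate synthesis, signalling, turnover and response, 3 were called higher in Sha and 2 lower (VSP1 and VSP2), against 2.65% and 3.60% of all 19316 loci, and the list's median interaction was -0.35 beside -0.02 for all loci. Allene oxide cyclase makes the precursor ring of jasmonate, and AOC2 gave 0.670 and 0.586 in Sha salt, 0.160 and 0.157 in Sha control, 0.412 and 0.432 in Ler salt, and 1.34 and 1.31 in Ler control. It was up-regulated in Sha (1.98) and down-regulated in Ler (-1.65), for an interaction of 3.64 (SE 0.12, adjusted p = 0.00017). AOC1 followed with 1.7 (adjusted p = 0.0045), since salt lowered it in Ler (-1.62) while its change in Sha was 0.08; AOC1 and AOC2 are close homologs. NATA1, which makes N-acetylornithine after jasmonate, was up-regulated in both ecotypes, by 8.98 in Sha and 6.99 in Ler (interaction 1.99, adjusted p = 0.00079). The repressors of the JAZ family were not called, with interactions between -0.93 (JAZ5) and 0.62 (JAZ1), and the regulator MYC2 had 0.04 (adjusted p = 0.86).

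**Figure D3:**
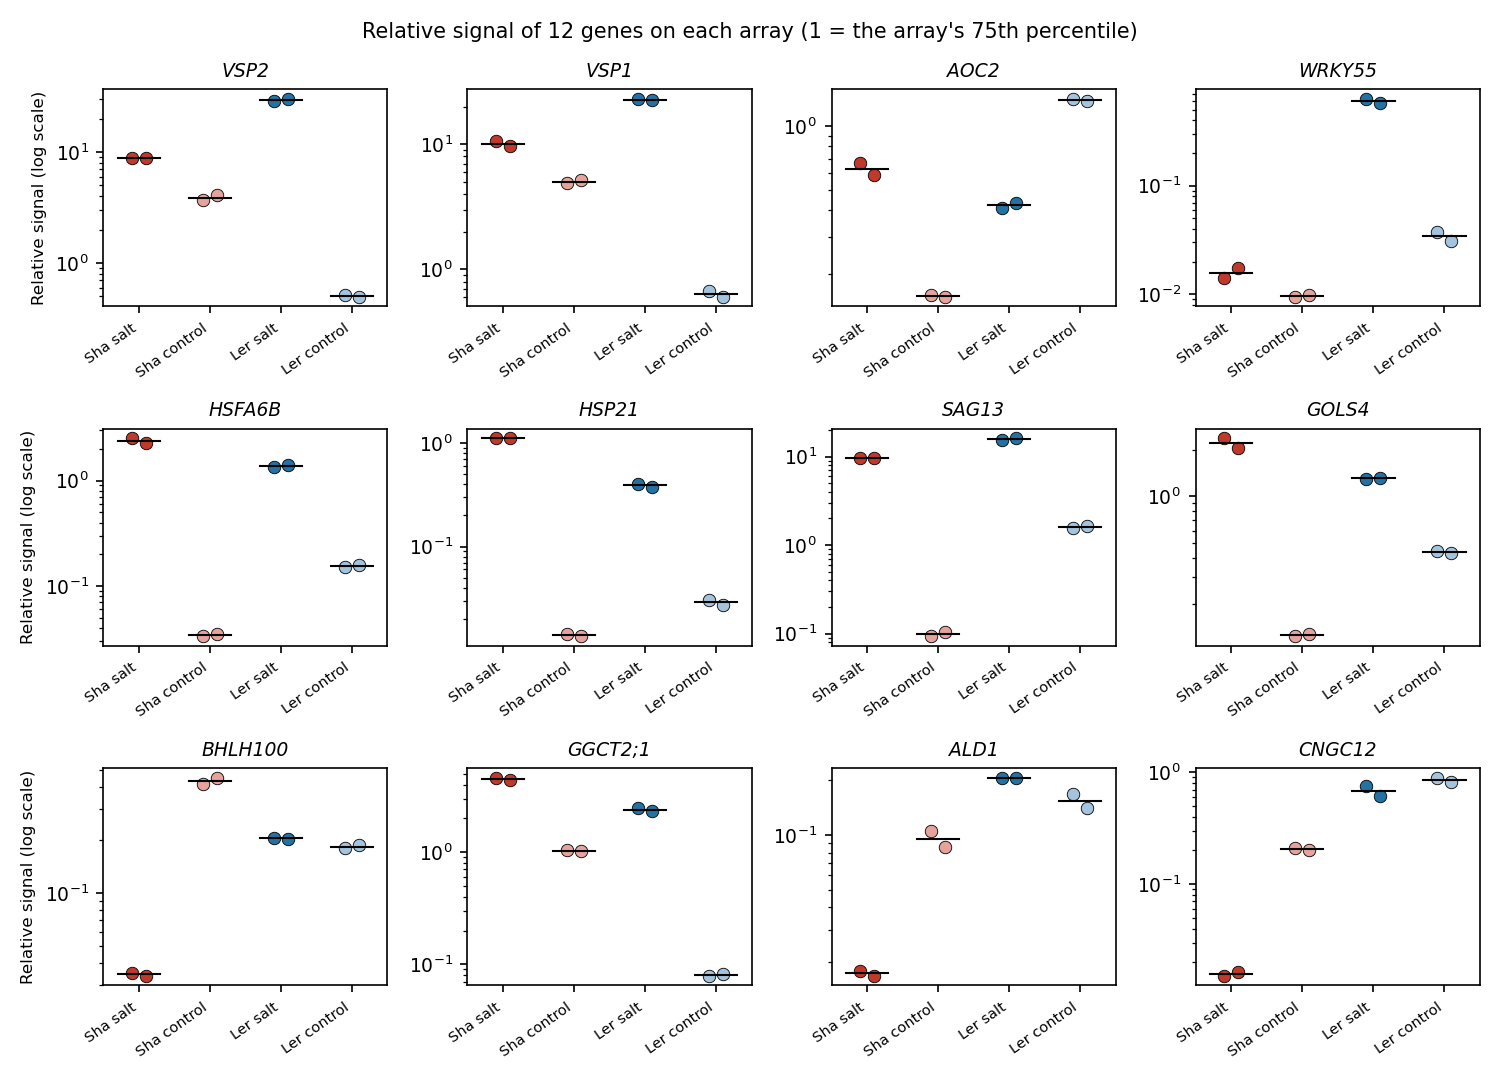
Relative signal on each array (y axis, log scale, 1 is the array's 75th percentile) of 12 genes in Sha salt, Sha control, Ler salt and Ler control (x axis). Points are arrays and lines are the geometric means of 2 arrays. The arrays of a group lie close together in every panel, and BHLH100, CNGC12 and ALD1 are lowest in Sha salt.

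Heat shock genes gave the largest share of called loci on the high side among the lists. Of 18 measured heat shock factors and chaperones, 9 were called higher in Sha and none lower, beside 2.65% and 3.60% of all loci. Their median interaction was 1.05. The list's median salt change was 2.86 in Sha and 1.7 in Ler. Chaperones bind unfolding proteins, and 7 of 10 were called, while 2 of 8 heat shock factors were. HSFA6B, a heat shock factor that acts under ABA, had relative signals of 2.51 and 2.27 in Sha salt, 0.0335 and 0.0353 in Sha control, 1.33 and 1.42 in Ler salt, and 0.151 and 0.157 in Ler control. It was up-regulated in both ecotypes, Sha was above Ler with salt and below it without salt, and the interaction was 2.96 (SE 0.12, adjusted p = 0.00025). HSP21, the small heat shock protein of chloroplasts, gave 1.11 on both arrays of Sha salt, 0.0143 and 0.0136 in Sha control, 0.403 and 0.378 in Ler salt, and 0.0307 and 0.0271 in Ler control (interaction 2.56, adjusted p = 0.00043). HSP17.4 (2.14), HSP70 (1.96), HSP18.2 (1.77), HSFA6A (1.51), HSP17.6A (1.25), HSA32 (1.16) and the coactivator MBF1C (1.01) made up the rest. HSFA2, which drives many of these chaperones after heat, rose by 4.37 in Sha and 4.51 in Ler, and its interaction of -0.15 was not called (adjusted p = 0.45). The call of MBF1C was lost when Sha salt replicate 1 was left out, and with 3 other single arrays left out.

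Dehydration markers were strongly up-regulated in both ecotypes and somewhat more in Sha. Of 23 measured dehydration markers and LEA proteins, which protect membranes and enzymes in drying cells, 6 were called higher in Sha and none lower. Over all loci these shares were 2.65% and 3.60%. The list's median salt change was 4.63 in Sha and 4.02 in Ler. LTI65, a classical marker of ABA and drought, gave 4.3 and 5.03 in Sha salt, 0.0139 and 0.0150 in Sha control, 2.02 and 1.88 in Ler salt, and 0.0187 and 0.0257 in Ler control (interaction 1.86, SE 0.23, adjusted p = 0.0049). The lipid transfer protein gene LTP4 had the steepest salt response among them. Its relative signal was 55.0 and 48.2 in Sha salt, 0.0150 and 0.0140 in Sha control, 21.6 and 22.8 in Ler salt, and 0.0172 and 0.0169 in Ler control, a salt change of 11.79 in Sha and 10.34 in Ler (interaction 1.45, adjusted p = 0.0018). LEA7 (1.63), LTP3 (1.24, a close homolog of LTP4), ANAC072 (1.18) and DI21 (1.05) were the others, and ANAC072 and DI21 lost the call without Sha salt replicate 1.

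The core genes of ABA moved less. Of 36 measured loci, 4 were called higher in Sha and none lower, beside 2.65% and 3.60% of all loci, with a median of 0.36. HAI3, a clade A protein phosphatase that restrains ABA signalling, rose by 7.90 in Sha and 6.17 in Ler (interaction 1.73, SE 0.17, adjusted p = 0.0024). AAO3, the last enzyme of ABA synthesis, gave 8.23 and 7.65 in Sha salt, 1.41 and 1.19 in Sha control, 4.42 and 3.91 in Ler salt, and 2.18 and 1.86 in Ler control (interaction 1.57, adjusted p = 0.0038). CYP707A2, an ABA 8'-hydroxylase that breaks the hormone down, was lowered in Ler (-1.79) and changed by -0.27 in Sha (interaction 1.52, adjusted p = 0.0018). ABI5, a bZIP factor of ABA responses, had 1.02 (adjusted p = 0.005), and its call was lost with any of 4 single arrays left out, Sha salt replicate 1 among them. None of 9 receptors was called, and their median interaction was -0.44, from -0.91 (PYL5) to 0.53 (PYL6).

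Among genes of senescence and of protective sugars, single loci were further raised in Sha. SAG13, a short-chain dehydrogenase used as a marker of senescence, was at 9.52 and 9.55 in Sha salt, 0.0938 and 0.105 in Sha control, 15.5 and 16 in Ler salt, and 1.56 and 1.64 in Ler control. Sha was below Ler in both conditions, with a log2 difference of -0.73 with salt and -4.01 without it, so the interaction of 3.28 (SE 0.12, adjusted p = 0.00019) went with a gap that was smaller with salt. SAG29, a sugar exporter of the SWEET family, rose by 7.65 in Sha and 5.62 in Ler (2.02, adjusted p = 0.0025), and NAC6, a NAC factor that promotes senescence, had 1.03 (adjusted p = 0.0078) with its call lost without Ler control replicate 1, Sha control replicate 2 or Sha salt replicate 1. In all, 3 of 12 loci of chlorophyll breakdown and senescence were called, all higher in Sha, beside 2.65% of all loci. GOLS4, which makes galactinol for the raffinose sugars, gave 2.37 and 2.05 in Sha salt, 0.125 and 0.129 in Sha control, 1.3 and 1.31 in Ler salt, and 0.440 and 0.430 in Ler control (interaction 2.53, adjusted p = 0.00043). SIP2, a raffinose-specific galactosidase, was also called (1.53, adjusted p = 0.0019). Of 17 raffinose and trehalose loci, 3 were called higher and 1 lower, with a median of 0.08, and the trehalose phosphatases TPPI (1.18) and TPPD (-1.0) were called in opposite directions. TPPD lost its call without replicate 2 of any of the 4 groups. BCAT2, the first enzyme of branched-chain amino acid breakdown, had 1.36 (adjusted p = 0.0019). The factors of the DREB/CBF family switch on drought and cold genes. Of 6 measured, 1 was called higher and 1 lower, beside 2.65% and 3.60% of all loci. These were DREB2A at 1.4 (adjusted p = 0.0022) and CBF2 at -1.37 (adjusted p = 0.0091). CBF2 was not called with normexp background correction (-0.93).

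Iron genes were called in both directions. Of 28 measured loci, 5 were called lower in Sha, all of them in uptake and signalling, and 4 higher, 3 of them in storage. Over all loci 3.60% were called lower and 2.65% higher. Subgroup Ib bHLH factors switch on iron uptake when iron is short, and all 4 measured (BHLH38, BHLH39, BHLH100 and BHLH101) were called lower in Sha. BHLH100 gave 0.0348 and 0.0338 in Sha salt, 0.420 and 0.453 in Sha control, 0.206 and 0.204 in Ler salt, and 0.181 and 0.187 in Ler control. Salt down-regulated it in Sha (-3.67) while Ler changed by 0.15, and the interaction was -3.82 (SE 0.10, adjusted p = 0.00011). BHLH38 fell in both ecotypes, to 0.0502 and 0.0438 in Sha salt against 0.618 and 0.526 in Sha control, and to 0.132 and 0.144 in Ler salt against 0.356 and 0.362 in Ler control (interaction -2.22, adjusted p = 0.0011). BHLH39 (-1.96) and BHLH101 (-1.14) followed, as did NAS4 (-1.12), which makes the iron chelator nicotianamine. NAS2, of the same family, was called higher in Sha (1.19, adjusted p = 0.0019), and NAS1 (0.84) and NAS3 (-0.71) were not called. BHLH38 and BHLH39 are close homologs.

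On the storage side, ferritins hold iron inside plastids. FER2 gave 0.940 and 0.994 in Sha salt, 0.319 and 0.339 in Sha control, 0.309 and 0.295 in Ler salt, and 0.310 and 0.281 in Ler control, so that Sha salt alone stood apart (interaction 1.52, SE 0.12, adjusted p = 0.0013). FER1 had 1.2 (adjusted p = 0.015) and the vacuolar iron transporter-like VTL1 had 1.07 (adjusted p = 0.005), and both lost the call without Ler control replicate 1, FER1 also without Ler salt replicate 2. All 7 storage loci had a positive interaction, with a median of 0.77. The iron importer of the root surface, IRT1, fell in both, with a salt change of -5.52 in Sha and -5.58 in Ler and an interaction of 0.06 (adjusted p = 0.74). Root hair markers moved with the bHLH genes (8 of 12 called lower in Sha, sums above), and their part in this result was not tested.

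Genes that respond to sulfur shortage were raised less by salt in Sha, and 4 of the 5 called loci had a higher control level in Sha than in Ler. Of 16 measured loci, 5 were called lower in Sha and none higher, beside 3.60% and 2.65% of all loci, with a median of -0.44. GGCT2;1, a glutathione-degrading cyclotransferase, gave 4.58 and 4.40 in Sha salt, 1.04 and 1.02 in Sha control, 2.48 and 2.3 in Ler salt, and 0.0794 and 0.0822 in Ler control (interaction -2.76, SE 0.10, adjusted p = 0.00021). SDI1, a repressor of glucosinolate synthesis under sulfur shortage, gave 21.7 and 16.9 in Sha salt, 3.83 and 3.47 in Sha control, 9.96 and 9.32 in Ler salt, and 0.578 and 0.507 in Ler control (interaction -1.76, adjusted p = 0.0036). Sha remained above Ler with salt for both genes, by 0.91 and 0.99, against 3.68 and 2.75 without salt. LSU1 (-1.45), LSU2 (-1.28) and the sulfate-reducing enzyme APR3 (-1.21) were also called. LSU2 was below Ler in Sha in both conditions, and its call was lost without Ler salt replicate 1.

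Of 16 loci of indole glucosinolates, which are sulfur-rich defence compounds, 3 were called lower in Sha and 1 higher, with a median of -0.29. Over all loci 3.60% were called lower and 2.65% higher. CYP79B3 and CYP79B2 turn tryptophan into the precursor of indole glucosinolates and camalexin. CYP79B3 gave 0.880 and 1.01 in Sha salt, 2.3 and 2.55 in Sha control, 4.35 and 3.99 in Ler salt, and 1.86 and 1.88 in Ler control, so it was down-regulated in Sha and up-regulated in Ler (interaction -2.52, SE 0.14, adjusted p = 0.00057). CYP79B2 had -1.17 (adjusted p = 0.0024) and the regulator MYB122 had -1.55 (adjusted p = 0.0023), while CYP81F1, which modifies the indole ring, was higher in Sha at 1.08 and lost the call without Sha salt replicate 1. PAD3, the last enzyme of camalexin synthesis, reached 1.51 and 1.43 in Sha salt against 0.168 and 0.162 in Sha control, and 6.49 and 5.84 in Ler salt against 0.217 and 0.218 in Ler control (interaction -1.67, adjusted p = 0.00092). Of 17 aliphatic glucosinolate loci, MAM3 (-1.53) and CYP79F2 (-1.38) were called lower.

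Defence genes of the salicylic acid branch were called in both directions. Of 26 measured loci, 5 were called lower in Sha and 1 higher, beside 3.60% and 2.65% of all loci. Another 20 did not pass, and the median was -0.21. ALD1, which makes the pipecolic acid precursor of systemic resistance, gave 0.0178 and 0.0168 in Sha salt, 0.106 and 0.0861 in Sha control, 0.206 on both arrays of Ler salt, and 0.167 and 0.141 in Ler control (interaction -2.89, SE 0.18, adjusted p = 0.00078). WRKY54 (-1.41), PR5 (-1.26), FMO1 (-1.22) and WRKY70 (-1.06) were the others. FMO1, which turns pipecolic acid into its active form, was raised in both ecotypes, but the log2 difference of Sha from Ler was -5.75 with salt and -4.53 without salt. FMO1 lost its call without Ler salt replicate 1, Sha control replicate 1 or Sha salt replicate 1, and WRKY70 without Ler control replicate 2, Ler salt replicate 1 or Sha salt replicate 2. The exception was DLO1, an oxygenase that removes salicylic acid by hydroxylation. DLO1 gave 0.503 and 0.502 in Sha salt, 0.162 and 0.165 in Sha control, 0.341 and 0.350 in Ler salt, and 0.985 and 0.995 in Ler control, and was up-regulated in Sha (1.62) and down-regulated in Ler (-1.52), for an interaction of 3.14 (SE 0.09, adjusted p = 0.00012).

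Of 63 measured WRKY factors, regulators of defence and senescence, 6 were called lower in Sha and 2 higher, beside 3.60% and 2.65% of all loci. The list had no common direction, with 33 negative and 30 positive values and a median of -0.01. WRKY55 gave 0.0142 and 0.0173 in Sha salt, 0.00953 and 0.00988 in Sha control, 0.630 and 0.582 in Ler salt, and 0.0378 and 0.0310 in Ler control. It rose by 4.15 in Ler, and its change in Sha was 0.69 (interaction -3.45, SE 0.19, adjusted p = 0.00057). WRKY41 (-2.08, adjusted p = 0.0064) was at or below 0.0081 on all 4 Sha arrays, against 0.261 and 0.250 in Ler salt. CNGC12, a cyclic nucleotide-gated ion channel of immunity, gave 0.0152 and 0.0163 in Sha salt, 0.212 and 0.200 in Sha control, 0.748 and 0.615 in Ler salt, and 0.889 and 0.824 in Ler control (interaction -3.37, adjusted p = 0.00043). Among 25 ethylene loci, 4 were called lower and none higher, led by the ERF factors ORA47 (-2.04) and ORA59 (-1.79). With ACO1, which makes ethylene, and ERF104 they make up the list's calls, and ERF104 lost its own without Ler control replicate 2, Sha control replicate 2 or Sha salt replicate 1.

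Cell wall genes were called on the low side. Expansins loosen the wall so that cells can stretch. Of 20 measured members, 9 were called lower in Sha and none higher, beside 3.60% and 2.65% of all loci. Their median interaction was -0.97, with a positive value in 1 member. The median salt change was -1.36 in Sha and -0.37 in Ler. EXPA18 gave 0.0976 and 0.117 in Sha salt, 0.683 and 0.754 in Sha control, 0.457 and 0.454 in Ler salt, and 0.559 and 0.574 in Ler control, so only Sha salt stood apart (interaction -2.43, SE 0.15, adjusted p = 0.00074). EXPA12 (-1.93), EXPA16 (-1.81), EXPA7 (-1.67), EXPA14 (-1.38), EXPA10 (-1.29), EXPA11 (-1.1), EXPA17 (-1.04) and EXPA9 (-1.01) were called as well. EXPA10 was up-regulated in both ecotypes, by 3.20 in Sha and 4.49 in Ler. EXPA11 lost its call without Sha salt replicate 1, EXPA17 without Ler salt replicate 2 or Sha control replicate 2, and EXPA9 with any of 4 single arrays left out, Sha salt replicate 1 among them. Xyloglucan endotransglucosylases, which cut and rejoin wall polymers, had 6 of 28 called lower and none higher. XTH10 led with -2.21, because it rose by 2.6 in Ler while its change in Sha was 0.39, and XTH20, XTH8, XTH14, XTH12 and XTH17 ranged from -1.43 to -1.04. XTH12 lost its call without Ler control replicate 1, and XTH17 (adjusted p = 0.034) with 6 of the 8 arrays left out in turn.

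Root hair markers moved with these wall genes, and EXPA7 and EXPA18 belong to both lists. Of the 12 root hair markers, 8 were called lower in Sha, with a median interaction of -1.11 and a median salt change of -2.69 in Sha and -1.62 in Ler. The proline-rich wall protein PRP3 gave 0.103 and 0.148 in Sha salt, 1.03 and 1.29 in Sha control, 0.220 and 0.201 in Ler salt, and 0.621 and 0.686 in Ler control (interaction -1.59, adjusted p = 0.013). PRP1, ADF8, RHD6, RHS19 and ADF11 were the remaining called markers, between -1.44 and -1.04. RHD6, the bHLH factor that starts root hairs, lost its call with any of 5 single arrays left out, and PRP1, RHS19 and ADF11 lost theirs with 2 or 3. Of 9 endodermis markers 1 was called, CASP5, which builds the Casparian strip (-1.42, adjusted p = 0.0024), and their median interaction was -0.29. The part of root RNA in the wall results was not tested.

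**Figure D4:**
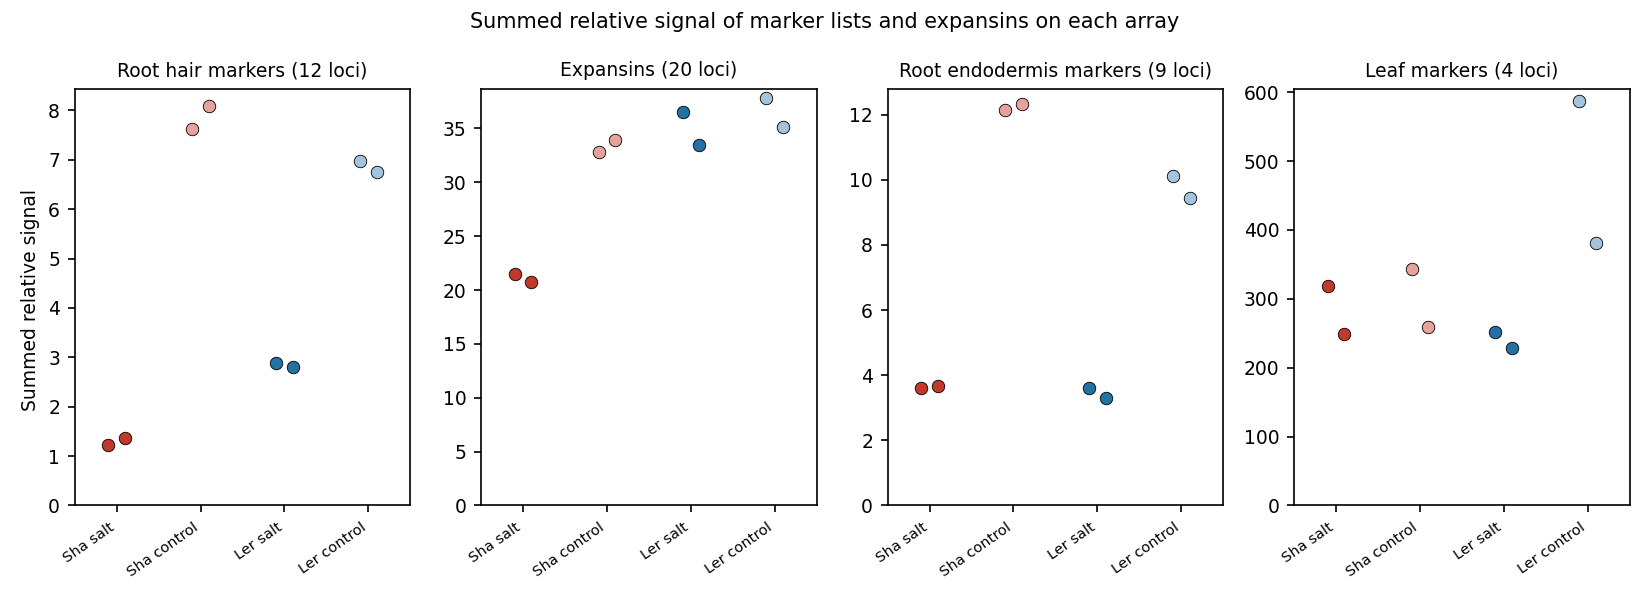
Summed relative signal on each array (y axis, from 0) of the 12 root hair markers, 20 expansins, 9 root endodermis markers and 4 leaf markers in the 4 groups (x axis); points are arrays. Root hair markers and expansins are lowest in Sha salt, while the endodermis markers are at a like level, 3.29 to 3.68, in Sha salt and Ler salt.

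Cell division genes shifted together by less than the 2-fold limit. All 21 measured loci had a negative interaction, with a median of -0.54 and a median salt change of -1.59 in Sha and -0.98 in Ler, but only PCNA1, the sliding clamp of DNA replication, was called. PCNA1 gave 0.286 and 0.288 in Sha salt, 1.47 and 1.38 in Sha control, 0.551 and 0.520 in Ler salt, and 1.14 and 1.17 in Ler control (interaction -1.2, SE 0.10, adjusted p = 0.0016). Of 15 gibberellin loci, 2 were called lower in Sha and 1 higher, beside 3.60% and 2.65% of all loci, with a median of 0.02. GA3OX1, which makes active gibberellin, was lower with -1.41 (adjusted p = 0.0016), as was GA20OX2, an earlier enzyme of that route (-1.1). GA2OX1, which inactivates the hormone, was higher (1.05) and lost its call without Ler salt replicate 1 or Sha control replicate 1. With normexp background correction neither GA20OX2 (-0.86) nor GA2OX1 (0.16) was called.

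Genes of photosynthesis had less negative salt changes in Sha, mostly by less than 2-fold, and this direction depended on the scaling. Of 45 measured photosystem and antenna loci, 44 had a positive interaction. The 2 called were LHCB2.1 (1.12, adjusted p = 0.032) and LHCB2.3 (1.11), beside 2.65% of all loci called higher. The median salt change was -0.93 in Sha and -1.48 in Ler and the median interaction was 0.60, but with quantile normalization the median interaction was -0.02. LHCB2.1 lost its call with 5 of the 8 arrays left out in turn and LHCB2.3 without Ler salt replicate 1. The 23 loci of the Calvin cycle and photorespiration had a median of 0.63 (0.14 with quantile normalization), and GLDP1, the glycine decarboxylase of photorespiration, was the only called member. GLDP1 gave 5.55 and 4.67 in Sha salt, 6.70 and 5.0 in Sha control, 3.09 and 3.19 in Ler salt, and 10.5 and 9.33 in Ler control (interaction 1.47, SE 0.23, adjusted p = 0.0093), so Sha salt and Sha control were close while Ler fell. All 3 probes of GLDP1 were called.

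Of 26 antioxidant loci, 5 were called higher in Sha and 1 lower, beside 2.65% and 3.60% of all loci. The dismutases CSD2 and FSD1 were called, while CSD1 (0.82), CSD3 (0.31), MSD1 (0.02), FSD3 (-0.32) and FSD2 (-0.60) were not. CSD2, the copper/zinc dismutase of chloroplasts, rose by 1.27 in Sha and changed by -0.70 in Ler (interaction 1.97, SE 0.22, adjusted p = 0.0034). FSD1, the iron dismutase, gave 13.7 and 12.7 in Sha salt, 33.1 and 29.6 in Sha control, 1.60 and 1.68 in Ler salt, and 10.2 and 9.97 in Ler control (interaction 1.38, adjusted p = 0.0019). Sha was below Ler for CSD2 and above it for FSD1, with and without salt. APX2, a cytosolic ascorbate peroxidase, rose by 4.32 in Sha and 2.35 in Ler (1.97, adjusted p = 0.00057). The glutathione peroxidase-like GPX6 and GPX7 were called as well, but GPX6 lost its call without Sha salt replicate 1 and GPX7 without Ler salt replicate 1. MDAR3, which regenerates ascorbate, was the called member on the low side (-1.65, adjusted p = 0.0015).

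Of 27 clock loci, 4 were called higher in Sha and none lower, beside 2.65% and 3.60% of all loci, with a median of 0.24. FKF1, a blue-light receptor that times flowering, gave 1.21 and 1.26 in Sha salt, 0.129 and 0.148 in Sha control, 0.951 and 0.867 in Ler salt, and 0.484 and 0.435 in Ler control (interaction 2.18, SE 0.15, adjusted p = 0.00092). ELF4, part of the evening complex, had 1.64 (adjusted p = 0.0022), RVE2 had 1.23 (adjusted p = 0.0019) and the morning factor LHY had 1.11 (adjusted p = 0.016). LHY lost its call with any of 5 single arrays left out, and its partner CCA1 had 0.08. Downstream of FKF1, the flowering regulator CO gave 0.220 and 0.184 in Sha salt, 0.0470 and 0.0392 in Sha control, 0.0510 and 0.0750 in Ler salt, and 0.0472 and 0.0427 in Ler control (interaction 1.76, SE 0.29, adjusted p = 0.011). Its target FT, the mobile flowering signal, fell in both, with a salt change of -1.95 in Sha and -3.05 in Ler (interaction 1.1, adjusted p = 0.0042), and its second probe was not called at 0.98. With normexp background correction neither CO (1.07) nor FT (0.46) was called, and FT lost its call with quantile normalization as well (0.99). The methods place sampling soon after dawn. The arrays hold no time course, so a difference in level and one in timing cannot be told apart.

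Nutrient and ion transport genes gave scattered calls. HAK5, a high-affinity potassium importer, gave 0.232 and 0.220 in Sha salt, 0.773 and 0.769 in Sha control, 0.158 and 0.150 in Ler salt, and 0.180 and 0.155 in Ler control, so Sha control stood above the rest (interaction -1.66, SE 0.13, adjusted p = 0.0014). CHX17, a cation/proton exchanger, had 1.24 (adjusted p = 0.0015). HAK5 and CHX17 were the called members among 14 loci of sodium and potassium transport, beside 3.60% lower and 2.65% higher of all loci. The phosphate importer PHT1;1 fell in both, with a salt change of -1.19 in Sha and -2.91 in Ler (interaction 1.72, adjusted p = 0.007), while PEPC1, a phosphatase gene raised by phosphate shortage, rose by 1.73 in Sha and 3.44 in Ler (-1.71, adjusted p = 0.0005). In the auxin response lists 5 of 86 loci were called lower and 3 higher, beside 3.60% and 2.65% of all loci. The repressor gene IAA34 was the highest at 2.29 (adjusted p = 0.0031), with relative signals between 0.0184 and 0.0873. It was not called with normexp background correction (0.999). DIN11, a marker of sugar starvation and darkness, gave 0.0702 and 0.0944 in Sha salt, 0.0239 and 0.0241 in Sha control, 1.62 and 1.79 in Ler salt, and 0.0548 and 0.0555 in Ler control (-3.18, SE 0.20, adjusted p = 0.00079). BAM5, a beta-amylase, gave 1.82 and 1.74 in Sha salt, 0.181 and 0.213 in Sha control, 1.29 and 1.14 in Ler salt, and 0.0446 and 0.0365 in Ler control (-1.74, adjusted p = 0.0034).

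The lists of fermentation, glutathione transferase, receptor-like kinase, NAC and flowering genes had medians between -0.10 and 0.13. Of all 19316 loci, 2.65% were called higher and 3.60% lower, and the counts below stand beside these shares. ALDH2B7, a mitochondrial aldehyde dehydrogenase, gave 1.48 and 1.46 in Sha salt, 0.573 and 0.565 in Sha control, 8.56 and 7.41 in Ler salt, and 0.934 and 0.840 in Ler control (interaction -1.80, adjusted p = 0.0012), and it was 1 of 2 loci called lower among 12 of fermentation and aldehyde oxidation. GSTU6, a glutathione S-transferase, rose in Ler (1.77) with a change of 0.17 in Sha (-1.6), while GSTU8 was called higher (1.03), and these were the calls among 38 transferases. GSTU8 was at 0.922 to 1.09 on the 4 Sha arrays and 10.4 to 19.9 on the 4 Ler arrays, and it lost the call without Ler control replicate 1 or Ler salt replicate 2. Of 22 cysteine-rich receptor-like kinases, which sit at the cell surface, 4 were called higher and 1 lower, led by CRK13 (1.33, adjusted p = 0.0047). With normexp background correction none of them was called, and CRK13 was at 0.27. Of 74 NAC factors, 3 were called each way, with ANAC040 the highest and NAC036 the lowest (-1.38, adjusted p = 0.0045). Of 17 flowering loci, 3 were called higher and 1 lower, SPL5, a promoter of flowering (-1.63, adjusted p = 0.00096).

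Single calls stood in other pathways, beside 2.65% of all loci called higher and 3.60% called lower. PORA, a light-dependent enzyme of chlorophyll synthesis, was the only call among 14 loci of that route (-1.13, adjusted p = 0.046) and lost it with 7 of the 8 arrays left out in turn. GL3, a bHLH factor of trichomes and anthocyanin, was the only call among 25 flavonoid loci (-1.22, adjusted p = 0.014). Of 20 aquaporins, TIP5;1 (2.36, adjusted p = 0.033) and PIP2;5 (1.16) were called higher, but the relative signals of TIP5;1 were all between 0.00618 and 0.0376, the groups overlapped, and the call was lost with 6 of the 8 arrays left out in turn.

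Of the 43 lists, several held no called locus. Over all 19316 loci, 2.65% were called higher and 3.60% lower, so a short list can hold no call at these shares. None of 60 ribosomal protein genes, 18 nitrogen genes, 16 genes of cuticular wax and cutin, 9 genes of proline metabolism or 3 of alternative respiration was called, and the ribosomal list had a median of 0.05 with values from -0.69 to 0.66. Proline synthesis and breakdown is a classical salt response, and the 9 proline loci had a median salt change of 1.35 in Sha and 1.3 in Ler. MicroRNA precursors had no locus well above background on all 8 arrays. With normexp background correction, fewer members were called in most lists: 6 heat shock genes, 2 dehydration markers, 1 ABA gene, 1 iron gene higher and 3 lower, 3 sulfur genes, 4 expansins, 3 XTH genes and 3 root hair markers, while the 5 jasmonate calls were unchanged in number. The same correction left no call among the cysteine-rich receptor-like kinases, the flowering loci or the photosystem and antenna loci. It left 1 WRKY factor called lower and 1 auxin response locus called higher, a SAUR gene and not IAA34. The strip plot sets 20 of the lists side by side.

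**Figure D5:**
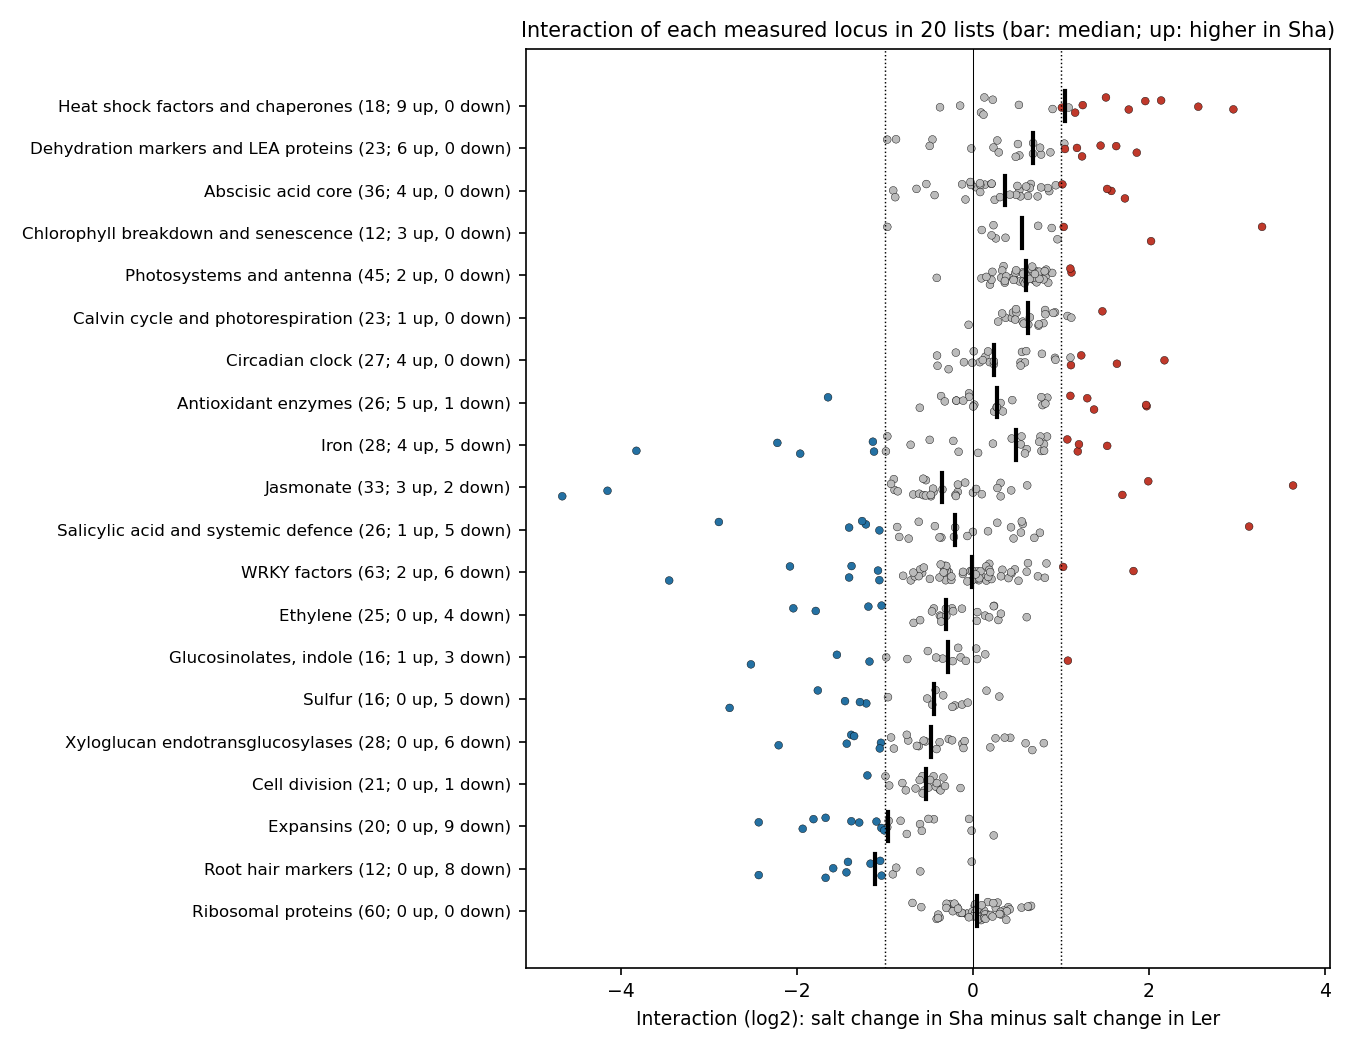
Interaction (x axis, log2, salt change in Sha minus salt change in Ler) of each measured locus in 20 lists (y axis, with measured loci and calls in brackets); red points were called higher in Sha, blue lower, grey not called, and bars are medians. Heat shock genes lie furthest to the right by median (1.05), and root hair markers (-1.11) and expansins (-0.97) furthest to the left.

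Most of the largest interactions came from genes outside the lists. On the high side AT4G15620 led with 5.64 (SE 0.34, adjusted p = 0.00067), from 0.484 and 0.432 in Sha salt, 0.00570 and 0.00361 in Sha control, 0.384 and 0.466 in Ler salt, and 0.188 and 0.232 in Ler control, so that the ecotypes overlapped with salt and differed without it. AT4G36600 gave 0.375 and 0.319 in Sha salt, 0.0129 and 0.0141 in Sha control, 0.0602 and 0.0572 in Ler salt, and 0.0575 and 0.0486 in Ler control (4.53, SE 0.17, adjusted p = 0.00023). RLP56, a receptor-like protein (3.47), and ANAC040, a membrane-tethered NAC factor (3.18), were highest in Sha salt in the same way. AT4G36600, RLP56 and ANAC040 were not called with normexp background correction. EARLI1, a lipid transfer-like protein, was at 0.0300 and 0.0341 in Sha control and between 0.260 and 0.368 on the other 6 arrays (3.27, SE 0.20, adjusted p = 0.0007). AT4G12500, with a locus number close to that of EARLI1, rose in Sha (1.73) and fell in Ler (-1.06).

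On the low side AT4G11210 gave 0.0150 and 0.0167 in Sha salt, 0.457 and 0.434 in Sha control, 0.0161 and 0.0154 in Ler salt, and 0.0232 and 0.0200 in Ler control (-4.37, SE 0.14, adjusted p = 0.00017), so it was high in Sha control alone. AT4G17470 was high in Ler salt alone, with 0.233 and 0.259 in Sha salt, 0.390 and 0.419 in Sha control, 2.18 and 2.31 in Ler salt, and 0.226 and 0.246 in Ler control (-3.97, SE 0.13, adjusted p = 0.00017). AT2G25450 gave 58.3 and 50.2 in Sha salt, 26.1 and 24.1 in Sha control, 9.48 and 9.96 in Ler salt, and 0.296 and 0.365 in Ler control (-3.78, SE 0.18, adjusted p = 0.00043), and all 4 of its probes were called. AT5G64120 and AT5G64110 had opposite interactions of 1.81 and -1.82, with salt changes below 2-fold in each ecotype (0.96 and -0.92 in Sha, -0.86 and 0.91 in Ler).

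Position and probe number were not used to make the calls. The locus that followed a locus called higher in Sha along a chromosome was itself called higher in 33 of 511 cases (6.46%), and the locus that followed a locus called lower was called lower in 52 of 694 (7.49%), beside 2.65% and 3.60% of the loci overall. By chromosome, the share of loci called higher in Sha ran from 2.26% on chromosome 1 to 3.21% on chromosome 4, and of those called lower from 2.95% on chromosome 3 to 4.1% on chromosome 4. Of 205 called loci with several probes, 199 had probes of the same sign throughout and 149 had every probe called.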

How the data were processed

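The authors labeled leaf RNA with Cy3, hybridized 1 sample per Agilent-021169 Arabidopsis 4 array and processed the scans with Agilent Feature Extraction 10.7.1.1. The deposited signals are intensity values in arbitrary units, corrected for background and spatial trends within an array and not scaled between arrays, and the series table repeats them. Here, outlier spots were left out (31 of 43603 probes had no other spot), the 5 spots of 50 probes were averaged, and log2 signals were scaled to each array's 75th percentile. For 34658 probes some group had both its arrays clear of background, and these entered a model with 1 mean per group (limma 3.58.1, R 4.3.3, 4 residual degrees of freedom, prior 1.95), and the account was limited to the 30255 probes well above background on all 8 arrays. A call needed more than 2-fold and an adjusted p under 0.05 (Benjamini-Hochberg over the 34658). On simulated data with 200 probes among the 34658 changed by a log2 value of 2, and independent noise, the code recovered 86% and called 8 unchanged probes. Only 246 of the calls reported here exceeded 4-fold, and deviations from the group means were correlated between groups, within a slide and across slides. The simulation thus checks the code and does not give the sensitivity or error rate of these calls. The p-values measure the spread between 2 samples per group, and this number limits the precision of every value.

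The array's accession tied 34245 probes to 25362 loci through the RefSeq table of TAIR10.1, whose build differs from that of the array, so no coordinates are given. A locus stands at its brightest probe. Loci without a name in the files, the study or that table are given by number. Named were the 12 loci with the largest interaction each way and 3 per response class. These needed the same sign in all 16 single-array estimates and all probes. In each list the called loci with the largest positive and negative interaction were named without that condition. Further list members were named after their values were seen. The lists, markers and tests were chosen with earlier results of these data known. The methods give more than 2-fold with p under 0.01, and p up to 0.05 for a listing of changed genes, and name no test. Each slide held salt and control of 1 ecotype and replicate number, so the number pairs these samples through a shared slide. Deviations from the group means correlated at 0.73 between Sha salt and Sha control and at 0.41 between Ler salt and Ler control. Between groups on different slides they ran from 0.09 (Ler salt and Sha salt) to 0.49 (Ler control and Sha salt). Correlation was thus not particular to a shared slide. Figures were drawn with Python 3.11.15, numpy 2.4.6, pandas 2.3.3 and matplotlib 3.10.9. No sequences were used here.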

Additional observations from a re-analysis of the deposited data

Results flagged for a closer look

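Each of these loci had a salt effect that differed between Sha and Ler by the test of the interaction itself, in limma, and they are the largest each way. On the high side were AT4G15620 (5.64), AT4G36600 (4.53), AOC2 (3.64), AT4G02360 (3.60), AT5G35660 (3.47), RLP56 (3.47), SAG13 (3.28), EARLI1 (3.27), AT4G33720 (3.24), ANAC040 (3.18), AT1G64360 (3.16) and DLO1 (3.14). On the low side were VSP2 (-4.66), AT4G11210 (-4.37), VSP1 (-4.15), AT4G17470 (-3.97), BHLH100 (-3.82), AT2G25450 (-3.78), AT2G44578 (-3.53), WRKY55 (-3.45), AT1G76470 (-3.38), CNGC12 (-3.37), AT2G30670 (-3.25) and DIN11 (-3.18). The Sha salt arrays of AT5G35660 gave 0.893 and 0.381. Its call (adjusted p = 0.029) was lost with 6 of the 8 arrays left out in turn, among them Sha salt replicate 1 (2.86). With normexp background correction AT5G35660 (2.75), AT4G36600 (3.24), RLP56 (2.54), ANAC040 (2.26) and AT4G11210 (-3.92) were not called. Outside the probes of the main account, a further 1166 fitted probes that were not well above background on at least 1 array were called.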

How the results depend on the processing

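The 1983 calls (1057 higher and 926 lower in Sha) became 509 (256 and 253) with normexp background correction at an offset of 50, of which 491 were among the 1983; the cause was not tested. They became 3149 (1751 and 1398) over all fitted probes, 7065 (3431 and 3634) with no fold limit, 246 (152 and 94) at over 4-fold and 1206 (511 higher) at 1 probe per locus. With over 2-fold and no test, 1653 were higher. The counts stayed within 1.5 times under quantile normalization (1907), median scaling (2020), a percentile over the probes of the main account (1990), a fit on these probes alone (2077), no background filter (1752), an intensity trend with robust moderation (2059), each probe on its own variance (1548) and an unadjusted p under 0.01 (1944), as in the methods. The share called higher was 53.3%, and 47.5% with quantile normalization. With each array left out in turn, the counts ran from 1629 to 2351, higher from 775 to 1333 and lower from 823 to 1018. With the replicate block there were 2331 calls and with the replicate within ecotype, which equals slide and scan day, 2470; they held 1975 and 1968 of the 1983. In neither did a called probe change direction, and among 177 loci named or called in a list only LHCB2.1 lost its call, under the second. Of these 177, 97 lost the call with normexp and 46 with an array left out, and none reversed. Standard errors were larger for dim probes (a median of 0.21 in the dimmest of 5 bins and 0.13 in the brightest).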
